A study of Mus musculus with 8 samples.

Results

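The genes described here are the 10 immediate neighbours of Ager on mouse chromosome 17, taken by symbol from the count table because they flank the floxed locus in the MHC class III region: Notch4, Gpsm3, Pbx2, Rnf5, Agpat1, Egfl8, Ppt2, Prrt1, Fkbpl and Atf6b. They are 10 of the 55291 genes in the table, and all 10 were among the 19470 genes that passed the filter on low counts. They were chosen by position, not by their values. RNA came from the lumbar spinal cord of 8 male mice carrying the human SOD1G93A transgene, a model of amyotrophic lateral sclerosis. In 4 of them (E1776, E5231, E5248 and E5568; genotype SOD1G93A Agerfl/fl Cx3cr1Cre/+, called Ager-deleted) both Ager alleles were floxed, and in the other 4 (E5386, E5642, E6578 and E6732; SOD1G93A Ager+/+ Cx3cr1Cre/+, called Cre controls) Ager was intact. Every mouse carried 1 Cx3cr1 allele replaced by a tamoxifen-inducible Cre, so the controls share the loss of that allele, and every mouse received tamoxifen, which the labels place at 12 weeks. By the labels every mouse was 120 days old, whereas the study describes the tissue as end-stage. Recombination was driven only in Cx3cr1-expressing cells, mainly microglia, while the libraries were made from whole cord, in which other cells keep Ager and all cells keep its neighbours.

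Ager encodes RAGE, a cell surface receptor of the immunoglobulin family that binds advanced glycation end products and other damage signals. It lies in one of the most gene-dense stretches of the genome, where unrelated genes sit very close to each other and share exons or face each other end to end. The question put to these genes is whether their RNA differed between mice with floxed and with intact Ager alleles. Among the neighbours, Notch4 is a Notch family receptor best known from endothelium, Gpsm3 binds inhibitory G protein subunits and is abundant in blood and myeloid cells, and Pbx2 is a homeodomain cofactor of Hox proteins. Rnf5, Agpat1 and Atf6b act at the endoplasmic reticulum (ER), Ppt2 is a lysosomal thioesterase, Prrt1 is an auxiliary protein of AMPA-type glutamate receptors, Fkbpl is a co-chaperone of Hsp90, and Egfl8 is a secreted protein with epidermal growth factor-like domains.

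On GRCm38, the assembly that mm10 names, Ager occupies chr17:34597862-34600936 on the forward strand. Pbx2 ends 461 bp before it (chr17:34591266-34597400, forward strand), and Rnf5 begins 154 bp beyond it on the reverse strand (chr17:34601091-34603690), so that the 3' ends of Ager and Rnf5 face each other. Towards lower coordinates follow Gpsm3 (chr17:34589806-34591754, forward) and Notch4 (chr17:34564268-34588503, forward). Towards higher coordinates follow Agpat1 (chr17:34604262-34613449, forward), Egfl8 (chr17:34613349-34615971, reverse), Ppt2 (chr17:34616662-34628510, reverse), Prrt1 (chr17:34629533-34633126, forward), Fkbpl (chr17:34644764-34646324, forward) and Atf6b (chr17:34647146-34655074, forward). The 11 genes together span 90.8 kb.

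Several neighbours share exon sequence, which limits how their counts can be told apart. Gpsm3 and Pbx2 share 227 bp on the same strand, 16.9% of the exon length of Gpsm3 and 6.24% of that of Pbx2. A transcript named Gm20460 shares 34.9% of Egfl8 and 36.6% of Ppt2 on their strand, and it held 0 counts in all 8 mice. How reads in shared exons were counted is not given in the sources used here. Its 0 counts therefore need not mean that no reads fell there. On the opposite strand, the antisense gene Gm20463 covers 24.7% of Rnf5 exons, also with 0 counts in every mouse, and Agpat1 and Egfl8 overlap by 101 bp at their 3' ends, 3.37% and 5.74% of their exons. The library kit kept strand, but the strand setting of the counting is not given in the sources used here. Notch4, Prrt1, Fkbpl and Atf6b shared no exon sequence with any annotated gene. The remaining annotated genes in the span, the pseudogene Gm20462 and the long noncoding Gm20461, held 0 counts and 1 to 6 counts per mouse and were not tested.

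The sequence just before the start site is shown for 3 genes: Ager itself, Pbx2, the nearest gene upstream of it, and Egfl8, the neighbour with the largest difference between genotypes. The windows hold the 250 bases upstream of the RefSeq start on GRCm38.p6, 5' to 3', with every CG dinucleotide in capitals. The Ager window (chr17:34597600-34597849, forward strand) lies within the 461-base gap between Pbx2 and Ager. The Pbx2 window is chr17:34592009-34592258 on the forward strand and the Egfl8 window is chr17:34615972-34616221 on the reverse strand. The RefSeq start of Pbx2 lies 993 bp from the start of the gene given above, so its window lies inside that gene body.
Pbx2: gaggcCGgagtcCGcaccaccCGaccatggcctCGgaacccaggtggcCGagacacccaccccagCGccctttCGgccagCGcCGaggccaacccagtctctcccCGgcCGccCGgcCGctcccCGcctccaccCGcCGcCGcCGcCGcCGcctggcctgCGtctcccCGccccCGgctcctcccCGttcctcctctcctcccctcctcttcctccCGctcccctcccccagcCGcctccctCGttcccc
Ager: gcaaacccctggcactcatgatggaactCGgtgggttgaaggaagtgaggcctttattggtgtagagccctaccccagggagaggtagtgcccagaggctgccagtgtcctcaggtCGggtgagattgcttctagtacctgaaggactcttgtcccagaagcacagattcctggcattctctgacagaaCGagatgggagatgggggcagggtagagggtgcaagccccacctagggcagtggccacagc
Egfl8: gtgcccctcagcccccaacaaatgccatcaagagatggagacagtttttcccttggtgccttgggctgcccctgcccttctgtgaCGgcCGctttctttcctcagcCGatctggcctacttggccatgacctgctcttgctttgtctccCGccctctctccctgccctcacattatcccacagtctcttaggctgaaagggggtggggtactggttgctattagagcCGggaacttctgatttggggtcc
The Pbx2 window held 27 CG dinucleotides, more than the 16 that mark the upper quartile of all 32851 such windows. The Ager window held 3 and the Egfl8 window 5, against a median of 6. Of the 9 neighbours with a window, Agpat1 held 22, Atf6b 13 and Fkbpl 10, and Notch4, Gpsm3, Ppt2 and Prrt1 held 4 to 6. Rnf5 was not matched. The RefSeq start used for Agpat1 lies 1599 bp from the start of the gene given above. Exon bases of the gene itself made up 231 of the 250 in the Ppt2 window, 50 in that of Fkbpl, 31 in that of Prrt1 and 27 in that of Notch4. The motif GGGCGG, on either strand, was found in 4 of the 9 (Gpsm3, Pbx2, Agpat1 and Egfl8), compared with 32.7% of all windows. TATAAA, on either strand, was found in 0 of the 9 and in 12.4% of all windows.

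Total counts on genes ranged from 31148047 to 40324897 per mouse, and the detection floor of 3 counts equals 0.0729 to 0.0975 CPM (counts scaled to library size, TMM-normalized) depending on the mouse. Every marker of neurons, astrocytes, oligodendrocytes and microglia had counts, as whole cord should. Skeletal muscle genes stood apart in controls E5386 and E5642, with summed levels of 1244 and 1825 CPM over 20 genes against 71.3 to 100.03 CPM in the other 6 mice. The liver list was highest in control E6732, at 3257 CPM against 1890 to 2853 CPM in the others, and includes genes that cord also expresses.

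Ager, the targeted gene, was lower in Ager-deleted mice. It measured 0.889, 1.51, 1.02 and 1.34 CPM in E1776, E5231, E5248 and E5568, and 1.53 CPM in E5386, 2.22 in E5642, 2.18 in E6578 and 2.41 in E6732, the controls. All 4 controls lay above all 4 Ager-deleted mice, although E5386 lay close to the highest of them. The means were 1.19 ± 0.287 and 2.08 ± 0.382 CPM (SD, n = 4). On the log2 scale Ager-deleted mice differed from controls by -0.81 (SE 0.22, 95% interval -1.29 to -0.33). The difference reached the smallest p that 4 mice against 4 allow (exact permutation, two-sided p = 0.0286). It did not pass the threshold over all genes (edgeR exact test, Benjamini-Hochberg adjusted p = 0.252). With 35 to 99 counts per mouse, Ager is a low gene in whole cord, and it passed without control E5386 (log2 fold change -0.94, adjusted p = 0.0442 in the edgeR exact test). Without both E5386 and E5642 the estimate was -0.96 and was not called (edgeR exact test, adjusted p = 0.157).

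None of the neighbours was called. By the exact test of edgeR, 0 of 10 had an adjusted p under 0.05, where 14 of 19470 genes (0.0719%) did, 12 of them lower in Ager-deleted mice (0.0616%). The quasi-likelihood fit of edgeR also called 0 of 10, and 1 gene of the whole table (0.00514%). At an unadjusted p under 0.05, 1 of 10 neighbours, Egfl8, passed with either method, against 4.26% of all genes (3.06% counting lower genes alone) by the exact method and 6.71% by quasi-likelihood. The Ager-deleted and control mice overlapped for all 10 neighbours, while 3.88% of all genes showed no overlap, 1.91% with the Ager-deleted mice below. The median log2 fold change of the neighbours was 0.08, beside 0.0069 over all genes tested. Estimates were above 0 for 9 of the 10, against 52.0% of all genes, and below 0 for Egfl8.

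**Figure D1:**
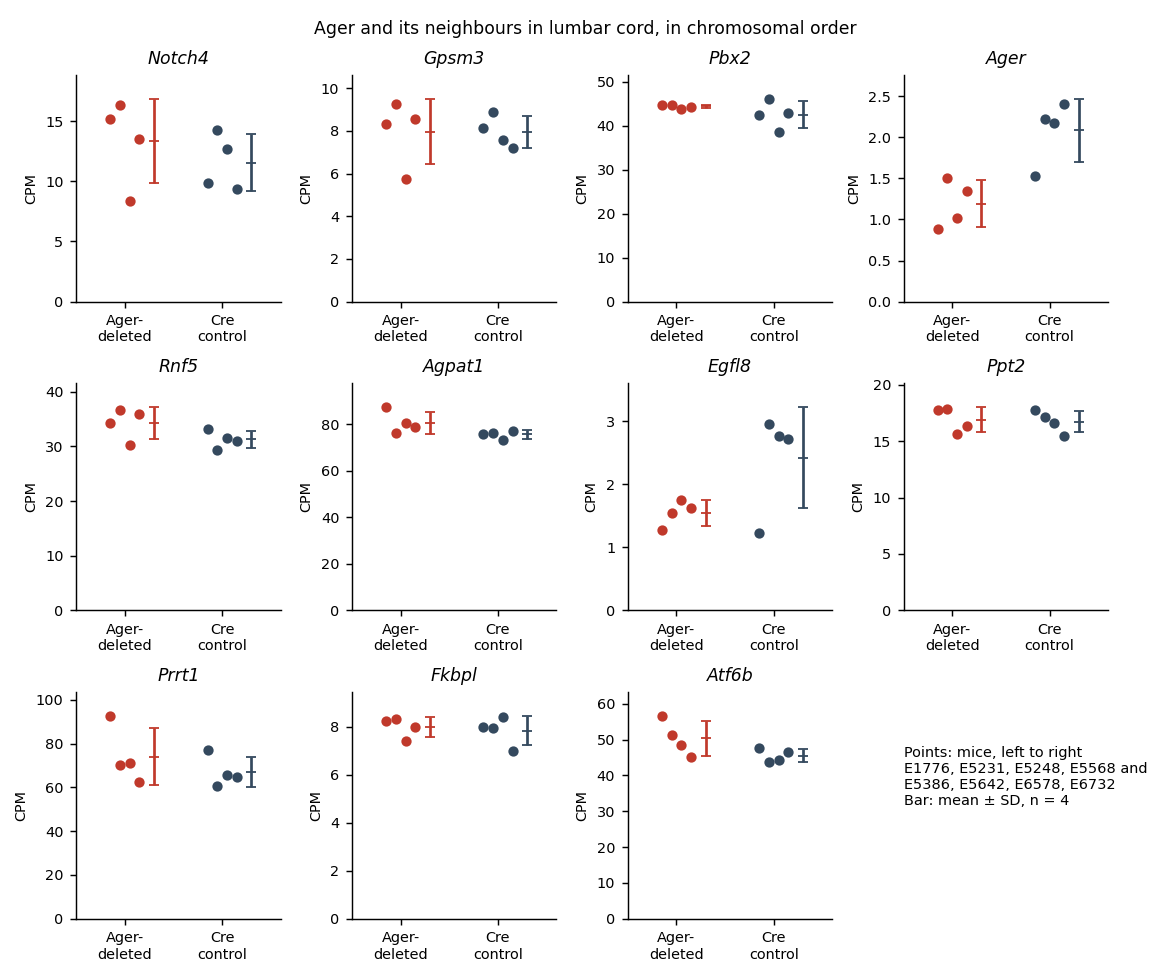
TMM-normalized CPM (y axes, each starting at 0) of Ager and its 10 neighbours in chromosomal order, with 1 point per mouse, Ager-deleted mice in red and Cre controls in blue, and bars giving the mean ± SD of 4 mice. The genotypes separate for Ager, from 0.889 to 1.51 against 1.53 to 2.41 CPM, and overlap for every neighbour.

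The intervals show which changes the data leave room for. For the 9 neighbours other than Egfl8, the log2 fold changes lay between 0.0061 and 0.21, and every 95% interval from the quasi-likelihood fit included 0 and excluded the Ager estimate of -0.81. The lowest bound among them was -0.32, for Gpsm3, and the highest was 0.67, for Notch4. The narrowest intervals belonged to abundant genes near Ager: Pbx2 from -0.08 to 0.20 and Agpat1 from -0.03 to 0.22. The interval of Egfl8, from -1.22 to -0.07, included the Ager estimate.

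Small estimates moved with single mice. Leaving out each mouse in turn, Notch4 ranged from 0.10 (without E5231) to 0.38 (without E5248), Atf6b from 0.09 (without E1776) to 0.20, and Agpat1 from 0.05 (without E1776) to 0.12. Pbx2 ranged from 0.02 (without E6578) to 0.09, and Rnf5 from 0.10 to 0.19. Of the doubted controls, leaving out E6732 gave 0.125 for Notch4, and leaving out E5386 and E5642 gave 0.11 for Pbx2 and 0.07 for Ppt2. Notch4, Atf6b, Agpat1, Pbx2 and Rnf5 stayed above 0 and were not called with any mouse left out.

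**Figure D2:**
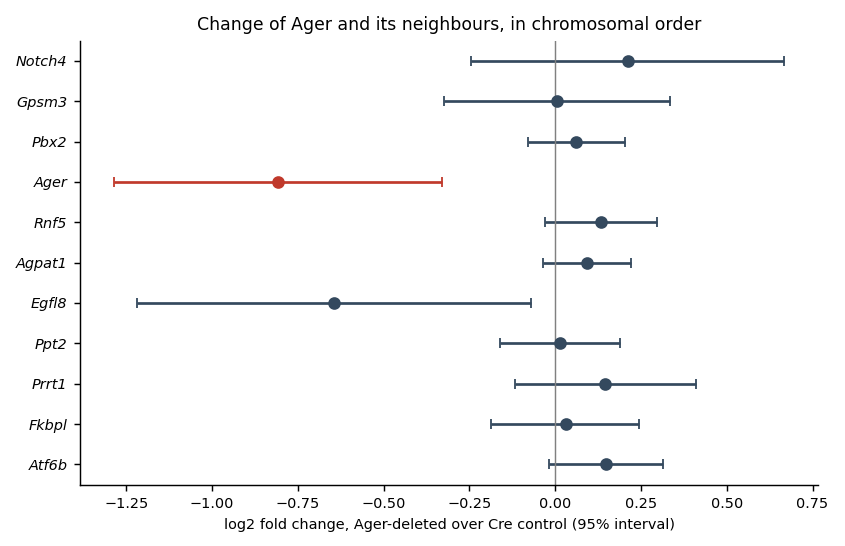
Log2 fold changes of Ager-deleted over Cre control mice (x axis) for Ager, in red, and its 10 neighbours, in blue, in chromosomal order from top to bottom, with 95% intervals from the edgeR quasi-likelihood fit. Ager (-0.81) and Egfl8 (-0.64) lie below 0, and the other 9 intervals cross 0.

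Pbx2, Gpsm3 and Notch4 lie on the lower-coordinate side of Ager. Pbx2 measured 44.8, 44.7, 43.9 and 44.3 CPM in the Ager-deleted mice and 42.5, 46.1, 38.6 and 43.0 CPM in the controls, in the mouse order given for Ager. It was the most even of the neighbours within the Ager-deleted group, with an SD of 0.378 around 44.4 CPM, against 3.08 around 42.6 CPM in controls. Its log2 fold change was 0.06 (SE 0.06), with p = 0.314 when genotypes were permuted exactly.

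Gpsm3 measured 8.31, 9.27, 5.76 and 8.56 CPM in Ager-deleted mice and 8.12, 8.89, 7.57 and 7.197 CPM in controls. The genotype means were 7.97 ± 1.53 and 7.95 ± 0.736 CPM (SD, n = 4), and the lowest and the highest mouse were both Ager-deleted. Notch4 varied most between mice after Egfl8, with 15.2, 16.3, 8.41 and 13.5 CPM in Ager-deleted mice and 9.85, 14.3, 12.7 and 9.39 CPM in controls. E5248 was the lowest mouse and E5231 the highest for both genes. The log2 fold change of Notch4 was 0.21 (SE 0.21), with the interval from -0.24 to 0.67, the widest of the 9 that included 0.

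Of the 3 genes acting at the ER, Rnf5, a membrane-bound ubiquitin ligase that marks misfolded proteins for degradation, lies nearest to Ager. It measured 34.3, 36.6, 30.3 and 36.0 CPM in Ager-deleted mice and 33.2, 29.4, 31.6 and 30.95 CPM in controls. Ager-deleted mice lay above all controls in 3 of 4 cases, and E5248 was the exception. Agpat1, which makes phosphatidic acid from lysophosphatidic acid, measured 87.2, 76.0, 80.3 and 78.9 CPM against 75.9, 76.0, 73.0 and 77.2 CPM, and 3 of 4 Ager-deleted mice were above all controls. Atf6b, a membrane-held transcription factor that is cut free during ER stress, measured 56.6, 51.3, 48.5 and 45.1 CPM against 47.5, 43.7, 44.2 and 46.5 CPM, again with 3 of 4 above all controls.

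The means of these 3 genes were higher in Ager-deleted mice by less than the test could separate from the spread. Rnf5 averaged 34.3 ± 2.85 and 31.3 ± 1.58 CPM, Agpat1 80.6 ± 4.74 and 75.5 ± 1.80 CPM, and Atf6b 50.4 ± 4.85 and 45.5 ± 1.81 CPM in Ager-deleted and control mice (SD, n = 4). Their log2 fold changes were 0.13 (SE 0.07), 0.09 (SE 0.06) and 0.15 (SE 0.08). Exact two-sided permutation tests gave p = 0.143, p = 0.0857 and p = 0.114, before any adjustment, and 0.0857 was the smallest among the 10 neighbours. Control E5386 was the highest control for Rnf5 and Atf6b.

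Ppt2, which removes fatty acids from thioesters in the lysosome, was among the most even genes of the group. It measured 17.8, 17.8, 15.7 and 16.3 CPM in Ager-deleted mice and 17.7, 17.1, 16.6 and 15.5 CPM in controls, a log2 fold change of 0.01 (SE 0.08). Fkbpl, which joins Hsp90 in steroid receptor complexes, measured 8.23, 8.33, 7.42 and 8.01 CPM against 8.01, 7.97, 8.42 and 6.98 CPM, a log2 fold change of 0.03 (SE 0.10). For both genes the highest and lowest mice of the 2 genotypes interleaved.

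Prrt1 had the highest count of any neighbour in a single mouse, 3647 in E1776. It measured 92.6, 70.4, 70.9 and 62.3 CPM in Ager-deleted mice and 76.9, 60.8, 65.7 and 64.6 CPM in controls, with means of 74.1 ± 13.0 and 67.0 ± 6.92 CPM (SD, n = 4). E1776 was the highest Ager-deleted mouse and E5386 the highest control. The log2 fold change was 0.15 (SE 0.12), with p = 0.4 when genotypes were permuted exactly. Leaving out E1776 brought it to 0.02.

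Egfl8 was the one neighbour with a lower mean in Ager-deleted mice. It measured 1.27, 1.54, 1.75 and 1.63 CPM in E1776, E5231, E5248 and E5568, and 1.23 CPM in E5386, 2.96 in E5642, 2.76 in E6578 and 2.72 in E6732, the controls. Controls lay above all Ager-deleted mice in 3 of 4 cases, and the fourth, E5386, lay below all of them. The means were 1.55 ± 0.204 and 2.42 ± 0.800 CPM (SD, n = 4). The change of -0.64 on the log2 scale (SE 0.26) was not called (edgeR exact test, p = 0.0253, adjusted p = 1; quasi-likelihood test, adjusted p = 0.742). A permutation of the mice gave p = 0.143 (exact, two-sided). Egfl8 rests on 45 to 112 counts per mouse, compared with at least 204 for each of the other neighbours.

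Whether Egfl8 was called depended on 1 mouse. Without control E5386 the log2 fold change was -0.87 and the edgeR exact test called it (adjusted p = 0.0168), in a fit that called 72 of 19716 genes (0.365%). The Ager-deleted mice then lay below all 3 remaining controls. Without both E5386 and E5642 the estimate was -0.83 and was not called (edgeR exact test, adjusted p = 0.128), and 0 of 10 neighbours were called in that fit or without E6732.

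Markers of the leptomeninges, the fibroblast layers that cover the cord, moved with Egfl8 in their sum, though not each of them. Their summed level over 10 genes was 193, 261, 401 and 278 CPM in E1776, E5231, E5248 and E5568, and 85.7, 552, 450 and 583 CPM in E5386, E5642, E6578 and E6732. The 5 mice lowest in Egfl8 were the 5 lowest in the marker sum and stood in the same order: E5386, E1776, E5231, E5568 and E5248. The other 3 did not keep their order, since E6732 was the highest of them in the sum and the lowest in Egfl8. Of the 10 markers, 9 were lowest in E5386, and 6 were higher in the other 3 controls than in the remaining 5 mice. Col3a1, Slc6a13, Aldh1a2 and Crabp2 were not among these 6. Slc6a13 and Aldh1a2 were 10.7 and 9.51 CPM in control E5642, below 14.6 and 13.5 CPM in E5248. Dcn, a collagen-binding proteoglycan, was 12.3 CPM in E5386, 51.3 to 143 CPM in Ager-deleted mice and 193 to 276 CPM in the other 3 controls. The sum leans on such abundant genes: in E5642, Dcn held 276 and Col1a2 115 of the 552 CPM. No marker was at 0 in all mice, 0 of 10 were called by either edgeR method, 1 passed an unadjusted p of 0.05 in the exact test, and all 10 had log2 fold changes below 0, with a median of -0.36. The part of this tissue in the Egfl8 difference was not tested. In bulk cord, fewer cells of a type and less RNA per cell cannot be told apart.

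**Figure D3:**
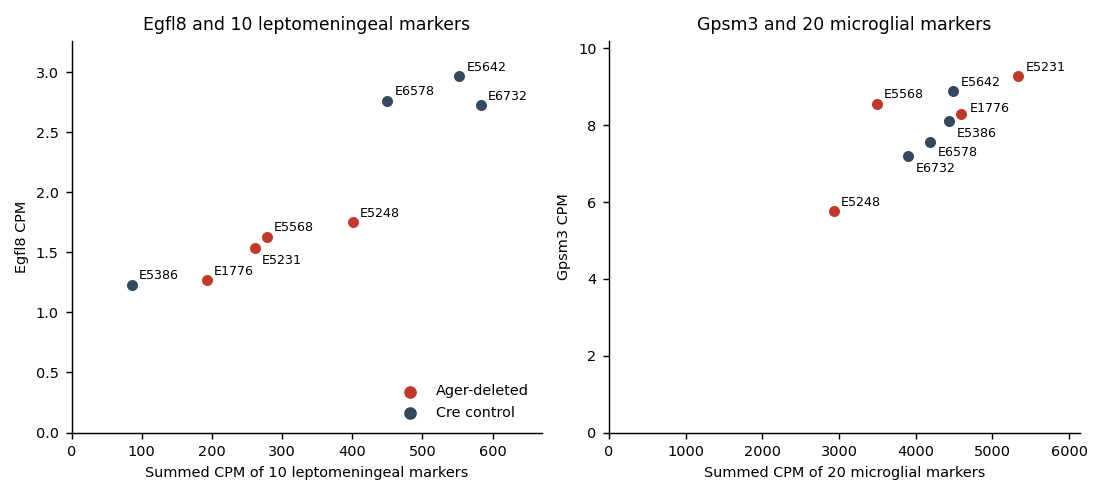
CPM per mouse of Egfl8 against the summed CPM of 10 leptomeningeal markers (left) and of Gpsm3 against the summed CPM of 20 microglial markers (right), with Ager-deleted mice in red and Cre controls in blue. Control E5386 is lowest on both axes at left, and the Ager-deleted mouse E5248 is lowest on both axes at right.

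The extreme mice of Gpsm3 and Notch4 were also those of the microglial markers. The 20 microglial markers summed to 4588, 5338, 2932 and 3492 CPM in Ager-deleted mice and to 4435, 4488, 4190 and 3902 CPM in controls, lowest in E5248 and highest in E5231, as both genes were. The mice between did not keep this order, since E5568 was next to E5248 at the low end of the sum but above all mice except E5642 and E5231 in Gpsm3. Of these markers, 16 were lowest in E5248 and 16 highest in E5231, none was at 0 in all mice, and 0 were called by either edgeR method, with 1 past an unadjusted p of 0.05 in the exact test. The 14 endothelial markers summed to 330 to 460 CPM in Ager-deleted mice and 382 to 466 CPM in controls. They were lowest in E5568 (330 CPM) with E5248 next (336), and highest in E5642 (466 CPM) with E5231 next (460). Of them, 3 were lowest in E5248 and 7 highest in E5231. The sums of the Notch pathway, depalmitoylation and Pbx2-related homeodomain lists read below were also lowest in E5248 and highest in E5231, unlike the remaining lists. Their part in the spread of Gpsm3 and Notch4 was not tested.

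Set against its neighbours inside each library, Ager separated the genotypes. The measure is the log2 level of Ager, log2(CPM + 0.5), minus the mean of the same for the 10 neighbours of the same library. It was -4.00, -3.45, -3.65 and -3.49 in Ager-deleted mice and -3.29, -2.98, -2.95 and -2.77 in controls. All 4 Ager-deleted mice lay below all 4 controls. The means were -3.65 ± 0.25 and -3.00 ± 0.22 (SD, n = 4) and differed by -0.65 (exact permutation, two-sided p = 0.0286, which is as small as this design allows). The Ager values tested above enter this measure, so it is not independent of the test of Ager alone. The mean log2 level of the neighbours themselves was 4.39 ± 0.10 and 4.36 ± 0.05 (SD, n = 4) and differed by 0.03 (exact permutation, two-sided p = 0.657). That mean averages 9 neighbours with log2 fold changes above 0 and Egfl8, at -0.64.

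**Figure D4:**
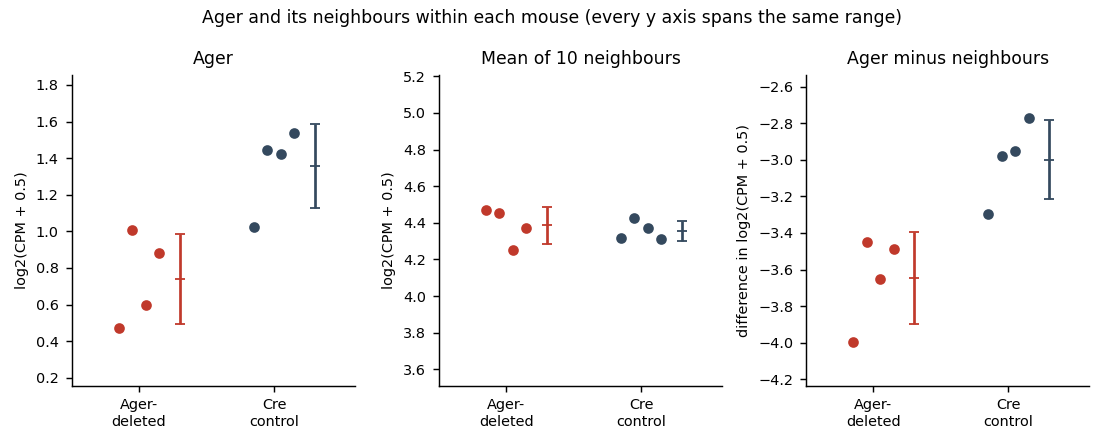
The log2(CPM + 0.5) level of Ager (left), the mean of its 10 neighbours (middle) and the difference between them (right) in each mouse, with the mean ± SD of 4 mice; all y axes span the same range on the log2 scale. The genotypes separate at left and right, with differences of -3.45 or lower in Ager-deleted mice and -3.29 or higher in controls, and overlap in the middle.

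Taken 1 at a time, 7 of the 10 neighbours gave a ratio of Ager to the neighbour that separated the genotypes completely, and Gpsm3, Egfl8 and Prrt1 did not. Over all other tested genes, 40.8% gave such a separation, and the same 8 Ager values enter every ratio. The summed level of the 10 was 366, 332, 313 and 315 CPM in Ager-deleted mice and 321, 307, 301 and 304 CPM in controls. The Ager-deleted mouse E1776 was the highest of the 8, and control E5386 lay above E5248 and E5568. The means were 332 ± 24.8 and 308 ± 8.77 CPM (SD, n = 4) (exact permutation, two-sided p = 0.114).

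Beyond the 10, no gene of the wider region was called. Of 95 annotated genes within 500 kb of Ager, 54 were tested and 0 were called in the edgeR exact test, the quasi-likelihood test or DESeq2. At an unadjusted p under 0.05 in the exact test, 2 passed, Ager and Egfl8. The genotypes failed to overlap for 1 of the 54 (1.85%), Ager, against 3.88% of all genes. Of the other genes in this window, the complement gene Cfb had the lowest estimate, -0.73 (95% interval -1.498 to 0.03), at levels of 0.754 CPM or less, and the heat shock gene Hspa1b the highest, 0.40 (95% interval -0.44 to 1.25). Both were named after their values were seen. Within 1000 kb, 114 genes were tested, 0 were called and Ager again was the 1 gene without overlap (0.877%). There 3 genes passed an unadjusted p of 0.05 in the exact test: Ager, Egfl8 and H2-Q10. H2-Q10, also named after its values were seen, had the lowest estimate of that window, below that of Ager. Chromosome 17 held 2 of the 14 called genes, Dynlt1b and Tmem181b-ps, each about 28.1 to 28.2 Mb from Ager.

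**Figure D5:**
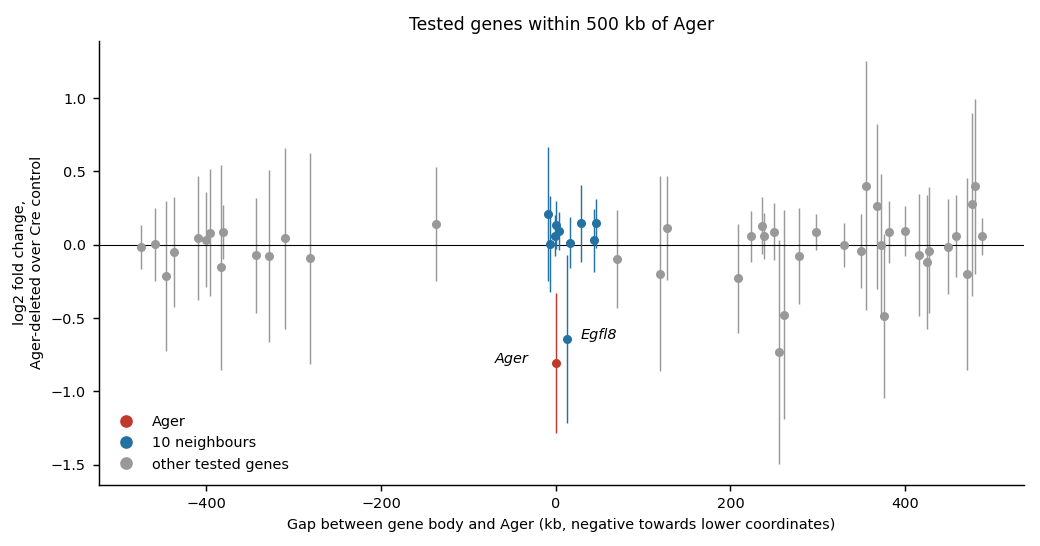
Log2 fold change (y axis, Ager-deleted over Cre control, with 95% intervals) of the 54 tested genes within 500 kb of Ager against the gap between each gene and Ager in kb (x axis). Ager (red) and Egfl8 (blue) have intervals below 0, whereas the other 9 neighbours (blue) and the genes beyond them (grey) scatter around 0.

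Per kilobase of exon, the neighbours differed widely in level. Averaged over the 8 mice, Prrt1 was highest at 30.6 ± 4.49 CPM per kb, followed by Agpat1 at 26.01 ± 1.43, Rnf5 at 22.1 ± 1.80, Atf6b at 17.4 ± 1.55 and Pbx2 at 11.9 ± 0.622 CPM per kb (SD, n = 8). Ppt2, Fkbpl and Gpsm3 stood close together at 6.44 ± 0.365, 5.93 ± 0.365 and 5.93 ± 0.829 CPM per kb. Notch4, Egfl8 and Ager were the lowest, at 1.55 ± 0.362, 1.13 ± 0.406 and 0.765 ± 0.267 CPM per kb. Neighbours in this order had ranges over the mice that overlapped, except between Atf6b and Pbx2, Pbx2 and Ppt2, and Gpsm3 and Notch4. Ager was expressed in whole cord at the low end of its own gene cluster, near the level of Notch4 and Egfl8. The value of Ager here pools the genotypes, which averaged 1.19 CPM (Ager-deleted) and 2.08 CPM (controls). Exon lengths include the shared exons. The levels of Egfl8, Ppt2, Gpsm3 and Pbx2 would be too low if reads in those exons were left uncounted.

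The genes that work with the neighbours elsewhere in the genome were read in 9 lists with 138 genes besides the neighbours, 137 of them tested. The counts over the 137 leave the neighbours out. Sizes, counts, medians and sums of a single list, here and below, include the neighbours it was built around. In the edgeR exact test 0 of these were called, and 8 (5.84%) had an unadjusted p under 0.05, against 4.26% of all genes. By quasi-likelihood 0 were called and 15 (10.9%) passed unadjusted, against 6.71% of all genes. The genotypes did not overlap for 9 (6.57%), against 3.88% of all genes. The lists of phosphatidic acid synthesis around Agpat1 (20 genes), G protein regulators around Gpsm3 (10 of 11 tested) and steroid receptor chaperones around Fkbpl (8) had 0 members passing an unadjusted p of 0.05 and 0 without overlap.

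The remaining lists held the few genes that stood apart, chosen for naming once their values were known. None of them was called. Over all genes, 3.88% showed no overlap and 4.26% passed unadjusted in the exact test, and the counts below are to be read against these shares. The list around Prrt1 holds 19 auxiliary subunits of AMPA receptors, Prrt1 included. Of these, 17 had log2 fold changes above 0, where 52.0% of all genes did, and their median was 0.12 over the 19. In this list 3 genes showed no overlap, Cacng3, Cacng7 and Cacng8, with higher levels in Ager-deleted mice. Cacng3 averaged 15.6 ± 0.519 and 13.0 ± 1.40 CPM (SD, n = 4), and its adjusted p was 1 in the edgeR exact test. Gsg1l passed unadjusted only, with a log2 fold change of 0.35, and averaged 14.2 ± 1.51 and 11.2 ± 1.31 CPM (SD, n = 4). The summed level of the 19 was 821 to 862 CPM in Ager-deleted mice and 741 to 812 CPM in controls, beside summed neuronal markers of 5217 to 6779 and 5585 to 6681 CPM. Of 31 Notch pathway genes, Dll3, a ligand-like protein, averaged 2.68 ± 0.346 and 1.80 ± 0.152 CPM (log2 fold change 0.57; edgeR exact test, adjusted p = 0.444). Of 36 genes of ER stress and ER-associated degradation, the list around Rnf5 and Atf6b, Pdia6 (log2 fold change 0.21) and Dnajb11 (0.12) showed no overlap, Hspa5 (0.18) and Dnajb9 (-0.22) passed unadjusted only, and the list median was 0.01. Pbx4 (0.21) and Pknox1 (0.18), of 12 homeodomain genes related to Pbx2, and Lypla2 (0.20), of 8 depalmitoylation genes, also showed no overlap.

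Of 14 paralogues of the neighbours, 0 were called and 0 passed an unadjusted p of 0.05 in the edgeR exact test. By quasi-likelihood 0 of 14 were called and 1 passed unadjusted, Fkbp4, a relative of Fkbpl named after its values were seen (log2 fold change 0.16, 95% interval 0.03 to 0.29). Notch1, Notch2 and Notch3 had log2 fold changes of 0.05, -0.02 and 0.12, beside 0.21 for Notch4. Pbx3 gave -0.05 beside 0.06 for Pbx2, Atf6 gave -0.08 beside 0.15 for Atf6b, and Egfl7 gave 0.11 beside -0.64 for Egfl8. Rnf185 gave 0.06, Ppt1 -0.04, Gpsm1 0.10 and Gpsm2 0.06. The lowest estimate was that of Agpat2, -0.67, and control E5386 measured 18.7 CPM there while the other 7 mice lay between 4.55 and 6.36 CPM.

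For each gene, the tested gene with the most similar profile was found by the root mean square difference of log2(CPM + 0.5) over the 8 mice, each gene centred on its own mean. For Egfl8 this was Cp (ceruloplasmin, a copper-binding ferroxidase), at 0.11 against a spread of 0.38 for Egfl8 itself. For Gpsm3 it was the ribosomal protein gene Rpl36a, at 0.04 against 0.19, for Notch4 the histone gene H4c8, at 0.08 against 0.32, and for Prrt1 the homeobox gene Hoxa6, at 0.05 against 0.18. Ager itself was nearest to Siglecg, a sialic acid-binding lectin, at 0.16 against 0.37. The nearest genes to Pbx2, Rnf5, Agpat1, Ppt2, Fkbpl and Atf6b were Ubn1, Bnip1, Zfp592, Kctd1, Ccdc141 and Smarca4, at differences of 0.02 to 0.03. Each was the closest of all other tested genes over 8 mice, and none was itself a neighbour of Ager.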

How the data were processed

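Stranded libraries of polyadenylated RNA were made from lumbar cord of 8 male mice, 4 per genotype, grouped by the genotype in the labels. The authors trimmed read pairs (Trimmomatic 0.36), aligned them to mm10 with STAR 2.7.3a and deposited raw counts per gene, summed with featureCounts (Subread 1.6.3) on GENCODE M25. They also deposited log2 values, which are log2 CPM after TMM normalization in edgeR. These were used only as a check: the same 19470 genes passed the filter here, and recomputed values differed by at most 4.78e-06.

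Counts were filtered with filterByExpr (minimum count 10), normalized by TMM and compared with the exact test that the study names (edgeR 4.0.16, R 4.3.3). Dispersions came from estimateDisp without a design, a setting that the study does not state. It reported 78 differentially expressed genes, against 14 called here and 78 with common and tagwise dispersions. Benjamini-Hochberg adjustment ran over 19470 genes, and an adjusted p under 0.05 is a call. Standard errors and 95% intervals are from the quasi-likelihood fit of the same counts. CPM values are TMM-normalized, and single values were tested by permuting genotypes exactly (two-sided, 70 assignments). Total counts per mouse ran from 31148047 to 40324897, and floors cover counting error only. The script was first tested on simulated data.

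Positions are from GENCODE M21 on GRCm38, an earlier release than that of the counts, matched by symbol (19079 of 19470 tested genes matched once). Upstream windows are RefSeq sequence on GRCm38.p6. The neighbours were chosen by position, and the lists of related genes and markers were written from general knowledge, all with earlier results of these data known; so were the mice left out together. Named genes are Ager, its neighbours, other tested genes between them, genes within 500 kb that were called or did not overlap, listed paralogues (1 is not reported here), and the gene most like each; any other is said to be named after its values were seen. Alternatives were other scalings, filters, dispersions and tests (DESeq2 1.42.0, limma-voom in limma 3.58.1), other pseudocounts, windows and summaries, and mice left out. The human data and the other mouse experiments of the study were not analysed here.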

Additional observations from a re-analysis of the deposited data

Results flagged for a closer look

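Egfl8 in control E5386 stood far from the other controls. It measured 1.23 CPM there against 2.72 to 2.96 CPM in E5642, E6578 and E6732, a gap of 0.861 of the group's range, above the 0.829 that marks an outlier among 4 values. Of 24 groups of values checked (Ager, the 10 neighbours and the ratio of Ager to them, in each genotype), this was the 1 that stood out, and chance alone gives about 1 in 20. The same mouse was the lowest of all 8 in 9 of 10 leptomeningeal markers, and it was 1 of 2 controls with high skeletal muscle genes.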

How the results depend on the processing

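No neighbour was called under any other scaling, filter, dispersion estimate or test, and none of the 54 genes within 500 kb; of 180 neighbour log2 fold changes over 18 alternatives, 169 kept their direction and side of the threshold, 10 changed sign and 1 (Egfl8 without E5386) became significant. No paired analysis was possible because the mouse labels carry no numbers shared between genotypes. When single mice were left out, the neighbours called numbered 0 to 1, genes called within 500 kb 0 to 2 (Ager and Egfl8, without E5386) and neighbours without overlap 0 to 1. Ager ranged from -0.94 to -0.69 (adjusted p 0.0442 to 1), and its difference from the neighbours from -0.74 to -0.53 (p = 0.0571 throughout, the smallest exact p that 3 mice against 4 allow). The near-zero estimates changed sign: Gpsm3 ranged from -0.0736 to 0.1338, Ppt2 from -0.0203 to 0.0495 and Fkbpl from -0.0216 to 0.0658, with -0.0371, -0.0203 and -0.0216 without E6732, and Gpsm3 was -0.0043 in limma-voom. The difference of Ager from the neighbours was -0.78 without E5386 and E5642 (exact p = 0.133, the smallest possible) and -0.57 without E6732 (exact p = 0.0571). Neighbours without overlap numbered 1 (Pbx2) with library size as the only scaling, and 2 (Pbx2 and Egfl8) without E5386 and E5642. The share of all genes without overlap was not counted in other scalings or with mice left out. Fewer mice separate more easily, so these counts cannot be set against the 3.88% of the full set. The count called over the whole table moved most, from 14 to 6 with at least 50 counts on average, 1 in the quasi-likelihood test and in limma-voom, 25 in DESeq2, 78 with common and tagwise dispersions, 67 without E5386 and E5642, 89 without E6732 and 3 to 98 with each mouse left out; the cause was not tested. Ager and Egfl8 had the lowest counts of the genes described, 35 to 112 per mouse, and the part of depth in their spread was not tested.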
